A study of Mus musculus with 23 samples.

Results

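The change of microRNA levels across birth was examined in lung epithelial cells that the labels call type II pneumocytes (AT2), as the 4 samples of postnatal days 1 and 7 (P1, P7) minus the 4 samples of embryonic days 16.5 and 18.5 (E16.5, E18.5). These 8 samples, 2 at each stage, were all the AT2 samples of those stages, out of 23 in the series. All came from wild-type (WT) C57BL6 mice, and no group carried a treatment or an altered gene. The other samples were 5 of AT2 at P14 and P28 and 10 of lung endothelial cells (EC), 6 of them from the stages around birth. The labels mark the AT2 samples with CD326 (EpCAM), a surface protein of epithelial cells in general, and use the name type II pneumocyte at every stage, so a sample from before birth may hold other epithelial cells, including progenitors. The 2 samples of each of these stages carry different specimen numbers in their titles. The labels do not say whether each number is a separate animal. Each p-value therefore rests on the variation among these samples, and how much of it is technical is not known.

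MicroRNAs are short RNAs that guide Argonaute proteins to messenger RNAs, mostly through pairing of the seed near the 5′ end, and lower the translation or stability of those messenger RNAs. Type II pneumocytes make and recycle surfactant, the lipid and protein film that lowers surface tension in the alveolus. Around birth they complete their surfactant machinery, the lung fills with air, and the cells go on to renew the alveolar epithelium. MicroRNA processing is needed for normal growth and branching of the lung epithelium.

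The nCounter panel counts fluorescent barcodes on single captured molecules, with no amplification. It holds 602 probes for mature microRNAs, and the values are counts multiplied by 1 scaling factor for each sample, called scaled counts here. MicroRNAs are given by the identifiers of the deposited table, because 0 of the 602 were paired with a name or a sequence in the tables used here. The sorted cells were therefore not checked against named epithelial, leukocyte or erythroid microRNAs, and no messenger RNA of an AT2 marker is on the panel. Levels of different microRNAs are not set against each other as amounts, since probes differ in efficiency.

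Depth and background differed between the samples. Recovered microRNA counts ranged from 61099 in E18.5 replicate 2 to 559365 in P1 replicate 2. Background was taken from the 8 lowest ERCC rows, synthetic control probes with few counts, as their mean plus 2 SD in each sample. In counts this limit overlapped between the sides, at 13.7 to 24.4 in embryonic and 6.74 to 20.8 in postnatal samples. After scaling it did not overlap: it was 17.4 and 16.3 for E16.5, 15.59 and 57.2 for E18.5, 7.81 and 6.43 for P1, and 6.16 and 8.26 for P7. The 281 microRNAs that were above the limit in none of the 8 samples moved with it: 280 of them were lower after birth, with a median log2 change of -1.18. A fall of a dim microRNA therefore cannot be told apart from this difference in background, and named microRNAs below are said to be below background where any of the samples compared was.

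E18.5 replicate 2 and P1 replicate 2 stood apart from the other samples. The first had the lowest counts, the highest factor (2.48) and the highest scaled limit of the 8. In the second, 1 microRNA, MIMAT0003484, took 34.1% of the microRNA counts, against 3.31% to 12.4% in the other 7. Over log2 values the samples of a stage correlated with each other at 0.964 to 0.981, each sample was closest to the other sample of its stage, and no embryonic sample correlated with a postnatal sample above 0.922.

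Across birth, a small group of microRNAs rose and a larger group fell in AT2 cells as the values were deposited. Of 302 microRNAs tested, those above background in at least 2 of the 23 samples, 120 (39.7%) changed, 19 higher after birth (6.29%) and 101 lower (33.4%), by limma with Benjamini-Hochberg adjustment at 0.05. The median log2 change was 1.498 among the rises and -1.48 among the falls, against -0.69 over all microRNAs tested. Of the rises 17, and of the falls 95, were at least 2-fold. The 4 embryonic and 4 postnatal values did not overlap for 16 of the 19 rises and 77 of the 101 falls, where 115 of all 302 (38.1%) did not overlap. Without E18.5 replicate 2 the counts were 15 higher and 64 lower, and without P1 replicate 2 they were 15 and 71.

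All 19 rises were above background in all 4 postnatal samples, and 16 of them in all 8. Of the 101 falls, 55 were above background in all 4 embryonic samples, 51 in all 8, and 3 in none of the 8. Of all 302 microRNAs tested, 221 were above background in all 4 postnatal samples, where the scaled limit was lower. In all 4 embryonic samples 170 were, and in all 8 samples 166. The shares among the falls were thus near those of all microRNAs tested.

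MIMAT0000381 rose most. Its scaled counts were 1.00 and 1.00 at E16.5 and 1.14 and 2.48 at E18.5, then 1025 and 889 at P1 and 1471 and 1397 at P7. It was below background in all 4 embryonic samples, where its recovered count was 1, under the mean of the low ERCC rows in each (8.38 to 11.0 counts), and far above it in all 4 postnatal samples. The fitted log2 change was 8.97 ± 1.18 (SE, adjusted p = 3.90e-05 by limma), and with each embryonic sample set to its background limit it was at least 52.2-fold higher after birth. This bound holds only if the probe was read alike in all samples and nothing was subtracted from it before deposit, neither of which was tested. At P14 it was 1.26 in replicate 1 and 1592 in replicate 2, and at P28 it was 892, 2349 and 2180, so 1 of the 5 later samples was again below background. It was above background in 0 of the 10 EC samples.

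MIMAT0000382 rose next among microRNAs whose sides did not overlap. It was measured at 38.4 and 16.4 at E16.5, 30.7 and 49.6 at E18.5, 270 and 242 at P1, and 421 and 468 at P7. Every postnatal sample lay above every embryonic one, and 3 of the 4 embryonic samples were above background. The log2 change was 3.39 ± 0.62 (SE, adjusted p = 0.000531 by limma), and the rise was 10.4-fold with the remaining embryonic sample set to its limit. The log2 change was 3.09 without E16.5 replicate 2 and 2.54 at the common floor described below. MIMAT0000382 stayed between 247 and 1434 in the 5 samples of P14 and P28.

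MIMAT0003168 fell most. Its scaled counts were 243 and 106 at E16.5 and 294 and 129 at E18.5, then 1.16 and 42.9 at P1 and 24.2 and 1.00 at P7. The sides did not overlap, but the samples within P1 and within P7 were far apart, and 2 of the 4 postnatal samples were above background. The log2 change was -4.42 ± 0.84 (SE, adjusted p = 0.000621 by limma), and the fall was 11.0-fold with the samples below background set to their limit. The size moved with the handling of low values and with single samples, to -2.69 with edgeR, -1.61 at the common floor described below and -3.33 without P1 replicate 1. It was above background in none of the 5 samples of P14 and P28.

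MIMAT0003742 fell next. It stood at 72.6 and 66.2 at E16.5, 29.6 and 64.4 at E18.5, 15.1 and 8.35 at P1, and 3.25 and 6.59 at P7. All 4 embryonic samples and 2 of the 4 postnatal ones were above background. The log2 change was -2.75 ± 0.48 (SE, adjusted p = 0.000369 by limma), and the fall was 6.15-fold with the samples below background set to their limit. At the common floor, which lies near the embryonic values of MIMAT0003742, the log2 change was -0.18. There all 4 postnatal values and E18.5 replicate 1 were raised to the floor. Its call in that setting thus rests on the other embryonic values, which lie just above the floor.

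**Figure D1:**
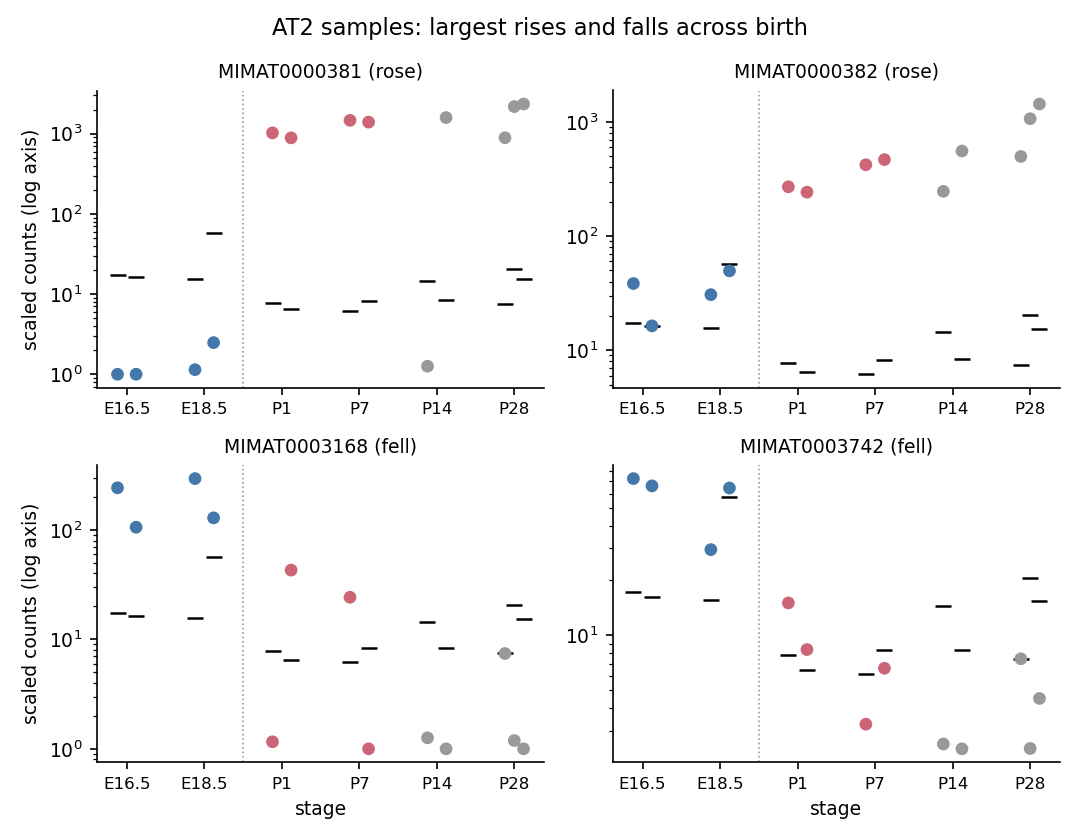
Scaled counts (log axis) of the 4 microRNAs with the largest rises and falls across birth, by stage, 1 point for each AT2 sample and a black dash at that sample's scaled background limit. The dotted line separates embryonic from postnatal stages, and grey points are P14 and P28, where MIMAT0000381 is 1.26 in 1 sample and 892 to 2349 in the other 4.

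The balance of rises and falls depended on how samples were scaled, and part of the list did not. With each sample shifted to the same median of the tested microRNAs, 45 were higher and 32 lower. With edgeR's quasi-likelihood test on the recovered counts, 48 were higher and 51 lower, and with the mean background subtracted from each sample, 18 were higher and 37 lower. Raising every value below 57.2, the highest scaled limit of the 8, to that floor gave 17 higher and 47 lower. Under the deposited scaling and 6 others (median shift, quantile, counts relative to the microRNA total, edgeR, background subtraction and the common floor), 13 of the 19 rises and 20 of the 101 falls had the same call in all 7. The 4 microRNAs described above are among them.

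**Figure D2:**
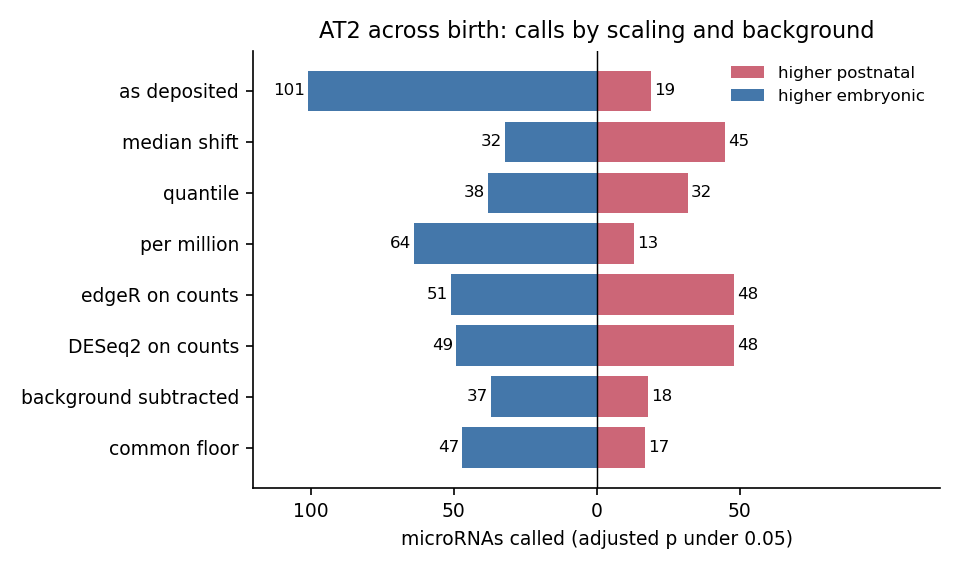
Number of microRNAs called higher after birth (right) and higher before birth (left) in AT2 cells under the deposited scaling and 7 alternatives, at an adjusted p under 0.05. The falls range from 32 to 101 and the rises from 13 to 48.

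The microRNAs measured well in every sample gave a more even split. Of the 95 that were above 57.2 in all 8 samples, 14 were called higher and 18 lower, and their median log2 change was -0.30. The 166 that were above their own limit in all 8 samples had a median of -0.55.

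**Figure D3:**
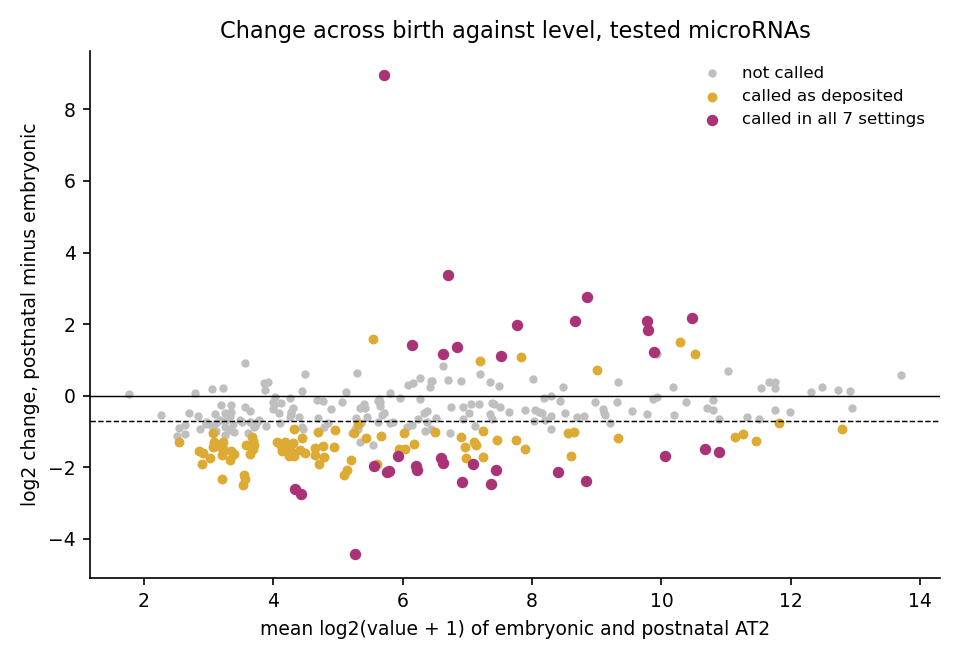
Log2 change across birth against the mean log2(value + 1) of embryonic and postnatal AT2 samples for the 302 tested microRNAs. The dashed line is the median change of -0.69, and the 33 microRNAs called the same way in all 7 settings lie on both sides of it.

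The number of microRNAs above background also depended on the limit. With each sample's own limit it was 223 and 246 at E16.5, 236 and 172 at E18.5, 281 and 252 at P1, and 256 and 238 at P7. The postnatal mean of 257 ± 17.9 (SD, n = 4) was 37.5 above the embryonic mean of 219 ± 32.9 (SD, n = 4), with a two-sided exact permutation p of 0.0571. With the common limit of 57.2, fewer were above it after birth, 129 ± 10.3 against 160 ± 9.11 (SD, n = 4 each, exact permutation p = 0.0286, the smallest that 4 against 4 can give). By each sample's own limit, 5 microRNAs were above background in all 4 postnatal samples and no embryonic one, and 0 showed the opposite. By the common limit these numbers were 2 and 7.

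The change across birth could be read in 2 comparisons that share no sample. Sample titles carry the prefix LMM.16 at E16.5 and P1 and LMM.15 at E18.5 and P7, and the labels do not say what the prefix marks. It is balanced across birth, so each prefix gives its own comparison. Neighbouring stages differ in prefix, so a step between them cannot be told apart from whatever the prefix marks. P1 minus E16.5 called 58 microRNAs (19.2%), 14 higher (4.64%) and 44 lower (14.6%), with a median log2 change of -0.53. P7 minus E18.5 called 97 (32.1%), 14 higher (4.64%) and 83 lower (27.5%), with a median of -0.84. These splits moved with the scaling too. With a median shift both had more rises than falls. They were 28 higher and 15 lower for P1 minus E16.5, and 30 and 14 for P7 minus E18.5. With edgeR they were 37 and 26, and 25 and 28, and with quantile normalization 21 and 22, and 23 and 25. More falls than rises remained in both relative to the microRNA total (6 and 19, and 4 and 11). The same held with background subtracted (13 and 20, and 17 and 20) and at the common floor (18 and 42, and 13 and 37). Without P1 replicate 2, P1 minus E16.5 fell to 19 calls. Without E18.5 replicate 2, P7 minus E18.5 fell to 20.

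Of the rises, 10 were called in both comparisons, 71.4% of each list, and all 10 are among the 13 rises called in all 7 settings. Of the falls, 22 were shared, 50% of the first list and 26.5% of the second. Of these 22, 11 are among the 20 falls called in all 7 settings. Those sets of 13 and 20 rest on the change across birth, which is the mean of both comparisons in the same samples. Overlap of the shared calls with them was therefore favoured and is not an independent check. No microRNA was called in opposite directions. Across the 302 microRNAs the changes correlated at 0.57, and across the 95 above the common limit at 0.40, a description only, since the difference in background enters both comparisons and microRNAs are not independent replicates.

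**Figure D4:**
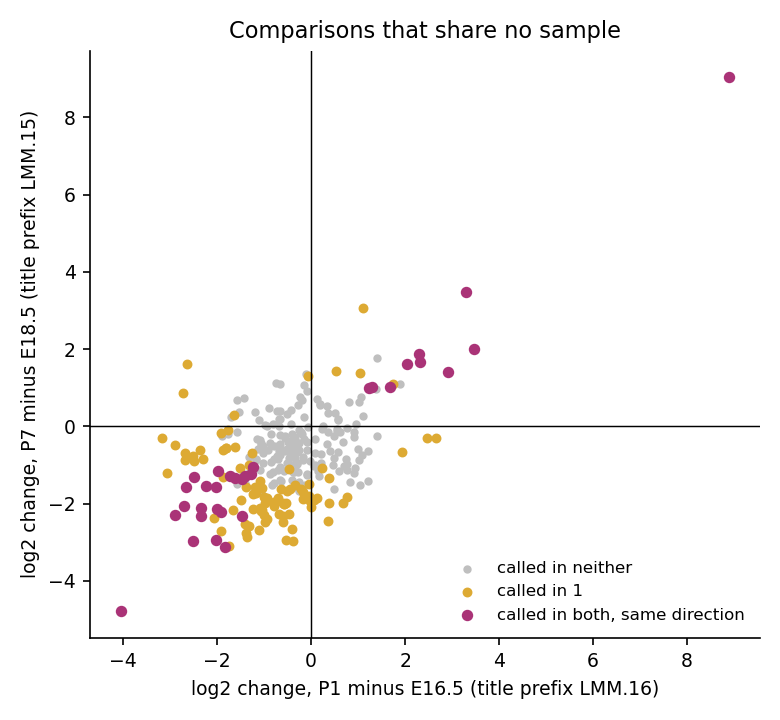
Log2 change P1 minus E16.5 against P7 minus E18.5 in AT2 cells, 1 point for each of the 302 tested microRNAs. The 10 shared rises lie in the upper right and the 22 shared falls in the lower left.

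MIMAT0000535 had the second largest rise from E16.5 to P1. Its scaled counts were 147 and 106 at E16.5, 248 and 258 at E18.5, 1319 and 1476 at P1, and 847 and 1239 at P7, above background in all 8 samples. The 4 stages show the main step between E18.5 and P1, with no overlap between the sides. Its log2 change was 3.47 ± 0.44 (SE, adjusted p = 5.22e-05 by limma) from E16.5 to P1, and it reached 1536 to 4003 at P14 and P28. MIMAT0000540 fell by 3.17 on the log2 scale between the same stages (SE 0.46, adjusted p = 0.000129 by limma). It was 391 and 270 at E16.5, 88.7 and 99.1 at E18.5, 29.0 and 42.9 at P1, and 87.5 and 65.4 at P7, so it was already lower at E18.5 and lowest at P1.

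MIMAT0003456 had the second largest fall from E18.5 to P7. It was measured at 422 and 305 at E16.5, 423 and 421 at E18.5, 119 and 82.7 at P1, and 60.02 and 38.2 at P7. It was lower in each of the 4 postnatal samples than in any embryonic one, by a log2 change of -3.11 ± 0.54 (SE, adjusted p = 0.00129 by limma) from E18.5 to P7.

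Between neighbouring stages, most calls were made in the step across birth itself. P1 minus E18.5 called 26 microRNAs (8.61%), 8 higher (2.65%) and 18 lower (5.96%), against 2 (0.662%) for E18.5 minus E16.5, 1 higher (0.331%) and 1 lower (0.331%), and 2 (0.662%) for P7 minus P1. At birth the split depended on the scaling. It turned over to 22 higher and 7 lower after the median shift, 13 and 8 in quantile-normalized values, 19 and 10 by edgeR and 11 and 3 after background subtraction. More falls than rises remained relative to the microRNA total (1 and 3) and at the common floor (14 and 20). With the highest microRNA left out of that total it was 6 and 30. The 3 steps share samples with each other and with the comparison above, and the difference between their counts was not tested. Each step also runs between the 2 title prefixes and cannot be told apart from a difference between these. The count at birth rested on single samples: it was 0 without E18.5 replicate 2, where 45 had an unadjusted p under 0.05 by limma, and 4 without P1 replicate 2. Among the 13 rises called in all 7 settings the median log2 change was 0.61 from E16.5 to E18.5, 1.41 from E18.5 to P1 and 0.24 from P1 to P7, and among the 20 falls it was -0.58, -1.46 and -0.68. Over all tested microRNAs it was 0.14, -0.63 and -0.28. The rises and falls were chosen by the change across birth in these same samples. That change gives the step from E18.5 to P1 more weight than the steps before and after it. A largest median at that step was therefore favoured by the choice.

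At birth itself, MIMAT0000535 rose by 2.46 ± 0.44 on the log2 scale (SE, adjusted p = 0.00619 by limma), second to MIMAT0000381 at 8.45 ± 1.66 (adjusted p = 0.00809 by limma, at least 32.0-fold). Neither rise was called without E18.5 replicate 2. MIMAT0000535 was also not called relative to the microRNA total, and MIMAT0000381 was also not called without P1 replicate 2. MIMAT0003168 fell by 4.33 (SE 1.18, adjusted p = 0.0308 by limma), but this call rested on single samples and on the scaling. Without P1 replicate 1 the change was -2.16 and was not called. It was also not called without either E18.5 sample. With all 8 samples kept, the call was lost with the median shift, quantile normalization and edgeR. The same held relative to the microRNA total, with or without the highest microRNA, and when fitted on the 13 AT2 samples alone. MIMAT0000230 fell by 2.67 (SE 0.65, adjusted p = 0.0196 by limma), and by 2.85 without P1 replicate 1, and was above background in all 8 samples. It was not called without either E18.5 sample or without P1 replicate 2. The scaled counts of MIMAT0000230 were 509 and 1309 at E16.5, 621 and 610 at E18.5, 109 and 84.7 at P1, and 294 and 244 at P7. The lowest values were those of P1, and the P7 values lay between those of P1 and E18.5.

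Before birth, MIMAT0000531 rose and MIMAT0000385 fell. MIMAT0000531 was 403 and 329 at E16.5 and 1167 and 1286 at E18.5 (log2 change 1.75 ± 0.35, SE, adjusted p = 0.0305 by limma), and went on to 2427 and 3112 at P1 and 2661 and 3978 at P7. MIMAT0000385 was 3892 and 2969 at E16.5 and 1083 and 1080 at E18.5 (log2 change -1.65 ± 0.37, SE, adjusted p = 0.0413 by limma), then 430 and 643 at P1 and 662 and 684 at P7. All 8 values of each were well above background, and each moved in 1 direction from E16.5 to P1. Leaving out any of the 4 embryonic samples left 0 calls in this comparison.

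In the first postnatal week the 2 calls were both falls, of MIMAT0001091 and MIMAT0001092. MIMAT0001091 was 499 and 455 at E16.5, 604 and 605 at E18.5 and 774 and 489 at P1, and fell to 105 and 115 at P7 (log2 change from P1 to P7 of -2.47 ± 0.47, SE, adjusted p = 0.0155 by limma). MIMAT0001092 was 650 and 535 at E16.5, 851 and 778 at E18.5 and 667 and 303 at P1, and fell to 122 and 87.4 at P7 (log2 change -2.11 ± 0.42, SE, adjusted p = 0.0155 by limma). For each, both P7 values were the lowest of the 8, and at least 1 of the P1 values lay within or above the embryonic range. No microRNA was called higher by limma on the deposited scaling, where 26 had an unadjusted p under 0.05. With a median shift limma called 4 higher and 2 lower, fitted on the 8 AT2 samples alone 17 and 37, and edgeR called 7 higher and 8 lower. Leaving out P1 replicate 1 or either P7 sample left 0 calls.

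After the first week, P14 and P28 minus P1 and P7 called 78 microRNAs (25.8%), 38 higher (12.6%) and 40 lower (13.2%). The split was 60 and 39 with a median shift, 24 and 55 with edgeR and 4 and 40 relative to the microRNA total. It shares its P1 and P7 samples with the one across birth. In P28 replicate 1, with 26640 microRNA counts, all 8 low ERCC rows stood at 1 count. The limit of that sample was thus 1 count, or 7.43 scaled. Any higher count passed there as above background. MIMAT0000536 was 86.7 to 128 before birth, 141 and 191 at P1, 234 and 276 at P7, and 490 to 1933 at P14 and P28 (log2 change 2.18 ± 0.24, SE, adjusted p = 1.28e-05 by limma). MIMAT0003475 was 11.6 to 64.5 in the 8 samples around birth and 104 to 459 later, above background in 1 of the 4 embryonic samples and in all 9 postnatal ones (log2 change 2.95 ± 0.39, SE, adjusted p = 5.99e-05 by limma). MIMAT0001420 was 342 to 466 before birth, 272 and 167 at P1, 89.6 and 97.0 at P7 and 7.43 to 49.3 later (log2 change -2.34 ± 0.31, SE, adjusted p = 5.99e-05 by limma). Of its 5 later samples 2 were below background, so this size rests in part on values under the limit. MIMAT0009455 went from 211 to 354 before birth to 97.3 and 102 at P1, 26.3 and 25.5 at P7 and 1.5 to 20.2 later (log2 change -2.62 ± 0.42, SE, adjusted p = 0.0002004 by limma), at least 3.85-fold lower since 4 of the 5 later samples were below background. The last pair had thus been lower at P1 and P7 than before birth already.

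By mean signal of the probe, which is not a measure of amount between microRNAs, the 5 highest in the 8 samples were MIMAT0003484, MIMAT0000383, MIMAT0000548, MIMAT0000121 and MIMAT0000527. MIMAT0003484 was 16554 and 7807 at E16.5, 15785 and 6958 at E18.5, 12016 and 75712 at P1, and 4329 and 18247 at P7. Its highest and lowest values were both postnatal, and its log2 change across birth of 0.58 ± 0.82 (SE) did not pass the test (adjusted p = 0.563 by limma). At P1 and P7 the samples of a stage lay several fold apart for this microRNA.

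MIMAT0000138, whose probe gave the highest signal in all 10 EC samples, was compared with itself between the cell types. It was 1203 and 4185 at E16.5, 4514 and 4686 at E18.5, 1575 and 1282 at P1, and 10208 and 9558 at P7. That is 0.942% to 3.67% of its mean in EC (127690 scaled counts) before birth, 1.23% and 1.00% at P1, and 7.99% and 7.49% at P7. The P7 samples were the highest and the sides overlapped, with a log2 change across birth of 0.22 (adjusted p = 0.812 by limma) and from P1 to P7 of 2.80 ± 1.09 (SE, adjusted p = 0.142 by limma). Its part in the changes of other microRNAs was not tested.

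The change across birth was then set against that of EC, with 3 embryonic and 3 postnatal EC samples. EC across birth called 74 microRNAs (24.5%), 13 higher (4.3%) and 61 lower (20.2%), a split that became 19 and 19 after the median shift, 24 and 20 in quantile-normalized values, 21 and 13 by edgeR and 25 and 17 after background subtraction. Relative to the microRNA total it was 2 and 1, and 12 and 61 with the highest microRNA left out of that total. The difference of the 2 changes passed the test for 2 microRNAs (0.662%), both more positive in AT2. All 6 EC samples came from specimens that also gave an AT2 sample, and with the specimen as a random block 3 were called, 2 more positive and 1 more negative in AT2. Without the block no microRNA was called more negative by limma on the deposited scaling, where 14 had an unadjusted p under 0.05, against 4 with background subtracted, 11 with the common floor and 1 without P1 replicate 2 of AT2. edgeR called 0 in either direction, with 26 at an unadjusted p under 0.05. The EC samples had 1 sample each at E18.5 and P1, which borrow the spread of the other groups.

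MIMAT0003151 was 68.3 and 95.0 at E16.5, 90.9 and 104 at E18.5, 80.0 and 129 at P1, and 132 and 151 at P7 in AT2 cells, where the change of 0.43 did not pass the test (adjusted p = 0.316 by limma). In EC it was 849 and 916 at E16.5, 412 in the E18.5 sample, 212 in the P1 sample and 124 and 90.5 at P7, a log2 change of -2.0 ± 0.42 (SE, adjusted p = 0.00547 by limma). The EC values were above the AT2 values before birth, and the cell types reached like values at P7. The difference of the changes was 2.43 ± 0.55 (SE, adjusted p = 0.0499 by limma), and this call was lost when any of the 8 AT2 samples other than P1 replicate 1, or any of the 4 EC samples of E16.5 and P7, was left out. The EC samples of E18.5 and P1, 1 each, were not left out. The call was also lost with the median shift, quantile normalization, counts relative to the microRNA total, edgeR, background subtraction and no filter. MIMAT0000381 differed by 10.50 ± 1.86 (SE, adjusted p = 0.00733 by limma), but none of the 6 EC samples was above background, so its EC change is not a measurement.

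Besides microRNAs, 4 messenger RNAs of general cell functions were read: Actb (cytoskeletal actin, NM_007393.1), Gapdh (an enzyme of glycolysis, NM_008084.1), Rpl19 (part of the large subunit of the ribosome, NM_009078.1) and B2m (beta-2 microglobulin, which pairs with MHC class I heavy chains, NM_009735.3). In the RefSeq annotation of GRCm38.p6 these genes lie on chromosome 5 at 142903115 to 142907976, chromosome 6 at 125161852 to 125166467, chromosome 11 at 98022003 to 98030493 and chromosome 2 at 122147687 to 122153082. Their values were multiplied by the same factor in each sample as the microRNAs. How that factor was chosen is not given in the sources used here, so what the values are relative to is not known.

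Gapdh was 79.7 and 317 at E16.5, 138 and 230 at E18.5, 26.7 and 6.36 at P1, and 18.6 and 36.4 at P7. Every postnatal value was below every embryonic one, 8.61-fold on the mean of log2 values, with a two-sided exact permutation p of 0.0286, the smallest that 4 against 4 can give, and 0.0571 after Benjamini-Hochberg adjustment over the 4 genes. Actb was 1509 and 4454 at E16.5, 3056 and 3717 at E18.5, 1164 and 624 at P1, and 537 and 1498 at P7. Its sides also did not overlap, although E16.5 replicate 1 lay just above P7 replicate 2, and the difference was 3.38-fold (exact permutation p = 0.0286, adjusted p = 0.0571).

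Rpl19 was 637 and 1513 at E16.5, 1341 and 1209 at E18.5, 659 and 543 at P1, and 165 and 651 at P7, with a log2 difference of -1.33 (exact permutation p = 0.0857, adjusted p = 0.114). B2m was 23.5 and 118 at E16.5, 80.7 and 136 at E18.5, 22.0 and 5.96 at P1, and 47.9 and 75.1 at P7, with a log2 difference of -1.44 (exact permutation p = 0.171, adjusted p = 0.171). Both overlapped between the sides. None of the 4 passed after adjustment. Gapdh and Actb had the smallest p that the test can give. With only these 2 of the 4 genes at that p, the adjusted p could not be below 0.0571, whatever the size of the difference. All 4 differences were negative, and E16.5 replicate 1 was the lowest embryonic sample for each. B2m and Gapdh were below background in P1 replicate 2. With each sample shifted to the same median the log2 differences shrank to -1.01 for Actb, -2.36 for Gapdh, -0.59 for Rpl19 and -0.70 for B2m.

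**Figure D5:**
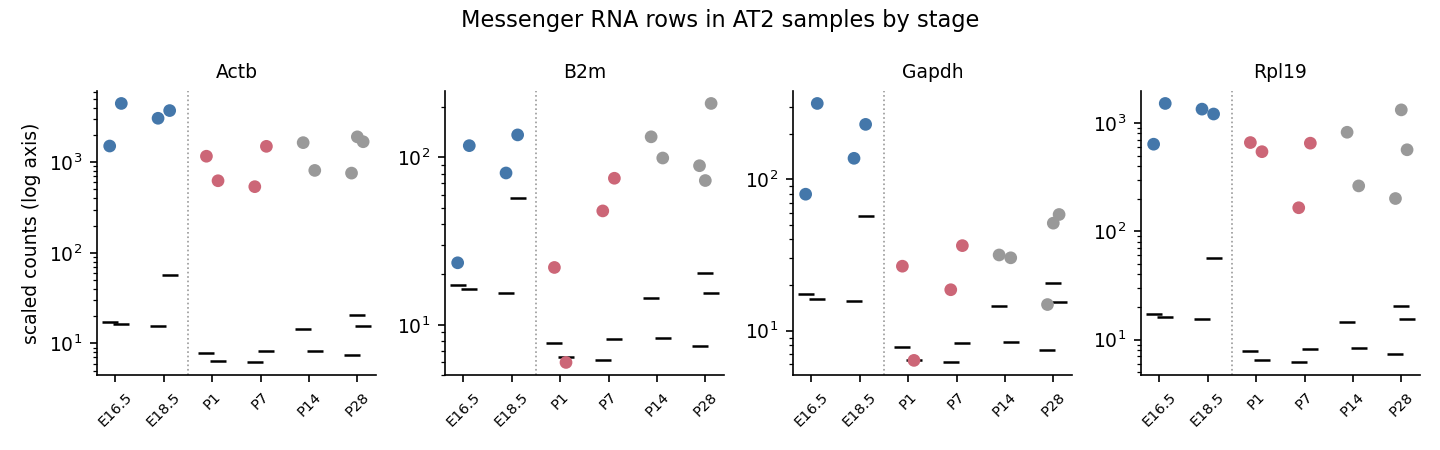
Scaled counts (log axis) of the 4 messenger RNA probes by stage, 1 point for each AT2 sample and a black dash at that sample's scaled background limit. Gapdh separates the embryonic samples (79.7 to 317) from those of P1 and P7 (6.36 to 36.4).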

How the data were processed

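Total RNA of sorted lung cells was prepared and read with NanoString's mouse miRNA kit and panel, according to the protocols per the labels. What the authors deposited is a signal: counts times 1 factor for each sample. Divided by that factor, 13861 of 13861 values in the 23 columns were whole (tolerance 0.1). ERCC rows were not scaled, and values under 1 had been set to 1. The submitters' processing notes name the build mm10, and how each factor was chosen is not given in the sources used here. Background counts are multiplied by the factor too. Precision is set by 2 samples for each stage and by the counts.

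Tests across microRNAs used limma 3.58.1 (R 4.3.3; lmFit, then eBayes with a trend) on log2(value + 1), with 12 group means over all 23 samples, Benjamini-Hochberg adjustment over 302 microRNAs and a threshold of 0.05. Fitted changes of low microRNAs can be too small, since 1 is added, or too large, since values below background enter as they are. MIMAT0000381 had a fitted rise of 501-fold across birth against a bound of 52.2-fold. A bound ("at least") sets each sample below its limit to that limit. It does not allow for the variation among samples or for other scalings, so it is not a confidence limit. Tests are two-sided. Alternatives used edgeR 4.0.16 and DESeq2 1.42.0 on the recovered counts, other scalings, filters, samples and blocks. The fits by limma and edgeR were also tested on simulated data.

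The members and lists were chosen with earlier results of these data known. The rule for named microRNAs took the largest rises and falls past the threshold whose samples did not overlap and whose higher side was above background throughout, and was kept with 2 in each direction in place of 12, as identifiers carry no names. MIMAT0000138 was chosen after its values were seen, as was the combination of the 7 settings. The 25 lists of microRNA names (170 names) could not be matched to identifiers, and 0 were tested. The 4 messenger RNA accessions were matched to RefSeq genes without version. Replicate numbers follow the order of the samples and pair nothing.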

Additional observations from a re-analysis of the deposited data

Results flagged for a closer look

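In 60 groups of 4 samples checked, 7 had a sample far from the other 3, where chance flags about 1 in 20 groups. Among embryonic AT2 samples, log2(value + 1) of MIMAT0000381 was 1.80 in E18.5 replicate 2 against 1.00 to 1.10 in the others, all at 1 recovered count. MIMAT0003742 was 4.93 in E18.5 replicate 1 against 6.03 to 6.20, MIMAT0003456 was 8.26 in E16.5 replicate 2 against 8.72 to 8.73, and MIMAT0000138 was 10.23 in E16.5 replicate 1 against 12.03 to 12.19. The scaled background limit of E18.5 replicate 2 was 57.2 against 15.59 to 17.4. Among postnatal AT2 samples, MIMAT0000385 was 8.75 in P1 replicate 1 against 9.33 to 9.42, and Rpl19 was 7.37 in P7 replicate 1 against 9.09 to 9.37.

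The change across birth differed between AT2 and EC for MIMAT0000381 by 10.50 and for MIMAT0003151 by 2.43 on the log2 scale, by the test of the difference itself. The first has no EC sample above background, and the second was just inside the threshold.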

How the results depend on the processing

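The 4 microRNAs with the largest changes across birth kept direction and call under every alternative run for them, single samples left out included. Their sizes moved, from 8.97 to 4.33 for MIMAT0000381, 3.39 to 2.54 for MIMAT0000382, -4.42 to -1.61 for MIMAT0003168 and -2.75 to -0.18 for MIMAT0003742 at the common floor. The call of MIMAT0003742 at that floor rests on a few embryonic values just above it, with the rest raised to the floor. The 120 calls across birth became 77 with a median shift (45 higher, 32 lower), 70 with quantile normalization (32 and 38), 77 relative to the microRNA total (13 and 64), 55 with background subtracted (18 and 37), 64 with a common floor (17 and 47) and 255 with no filter (20 and 235), while edgeR gave 99 (48 and 51) and DESeq2 97 (48 and 49). The specimen as a random block gave 121, the title prefix as a block 119, and single samples left out 79 to 126 (14 to 18 higher, 64 to 110 lower). No paired analysis was possible because replicate numbers were given in accession order and each specimen gave 1 AT2 sample. For AT2 minus EC change, where specimens are shared, the specimen as a random block gave 3 calls in place of 2.

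With a median shift, the calls became 0 of 2 for E18.5 minus E16.5, 6 in place of 2 for P7 minus P1, 44 in place of 97 for P7 minus E18.5, 38 in place of 74 for EC across birth and 1 in place of 2 for AT2 minus EC change. Quantile normalization gave 4 for P7 minus P1, 48 for P7 minus E18.5, 44 for EC across birth and 1 for AT2 minus EC change. Relative to the microRNA total, P1 minus E18.5 had 4 calls in place of 26, E18.5 minus E16.5 had 0, P7 minus P1 had 0, P1 minus E16.5 had 25 in place of 58, P7 minus E18.5 had 15, P14 and P28 minus P1 and P7 had 44 in place of 78, EC across birth had 3 and AT2 minus EC change had 1. Leaving the highest microRNA out of that total gave 0 for P7 minus P1, 64 for P7 minus E18.5 and 1 for AT2 minus EC change. edgeR on the recovered counts gave 0 for E18.5 minus E16.5, 15 for P7 minus P1, 53 for P7 minus E18.5, 34 for EC across birth and 0 for AT2 minus EC change. Background subtraction gave 14 for P1 minus E18.5, 0 for P7 minus P1, 33 for P1 minus E16.5, 37 for P7 minus E18.5, 42 for EC across birth and 5 for AT2 minus EC change. The common floor gave 13 for E18.5 minus E16.5, 23 for P7 minus P1, 50 for P7 minus E18.5, 50 for P14 and P28 minus P1 and P7, and 25 for AT2 minus EC change.

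With no filter, P1 minus E18.5 had 142 calls, E18.5 minus E16.5 had 0, P7 minus E18.5 had 220, EC across birth had 320 and AT2 minus EC change had 1; more microRNAs are tested there, most of them below background. Fitted on the 8 AT2 samples alone, P1 minus E18.5 had 84, E18.5 minus E16.5 had 6, P7 minus P1 had 54 and P1 minus E16.5 had 100. A pseudocount of 10 gave 14 for P7 minus P1. Single samples left out gave 0 to 28 for P1 minus E18.5, 0 to 2 for E18.5 minus E16.5, 0 to 3 for P7 minus P1, 19 to 56 for P1 minus E16.5, 20 to 95 for P7 minus E18.5 and 1 to 2 for AT2 minus EC change. Where a comparison had 0 calls by limma or edgeR, 9 to 60 microRNAs had an unadjusted p under 0.05 for E18.5 minus E16.5, 29 to 57 for P7 minus P1, 45 for P1 minus E18.5 and 26 for AT2 minus EC change. The difference in microRNAs above background was 21.8 to 46.4 with single samples left out and -31.5 at the common limit. The log2 differences of the messenger RNAs were -2.08 to -1.52 for Actb, -1.98 to -0.78 for B2m, -3.46 to -2.63 for Gapdh and -1.60 to -0.86 for Rpl19 with single samples left out. Without E16.5 replicate 1, Actb, Gapdh and Rpl19 passed (exact permutation tests, adjusted p = 0.0381 each). Apart from the filter, the cause of these differences was not tested. Counts under 24.4, the highest background limit in counts among the 8 samples, are within the background of at least 1 sample.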
